A study of Mus musculus with 9 samples.

Results

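The noncompact myelin, periaxin complex and glial adhesion genes of the mouse sciatic nerve were followed in nerves of PINCH1 mutants, PINCH2 mutants and controls. The set was chosen by gene symbol and held 10 of the 25965 gene entries of the count table: Prx, Drp2, Mag, Gldn, Cadm4, Gjb1, Gjc3, Cldn19, and the entries Gm15541 and Gm12927, which lie over Prx and Cldn19 on the opposite strand. PINCH1 and PINCH2 are LIM domain adaptors, encoded by Lims1 and Lims2, which join integrin-linked kinase to parvins at integrin adhesions. Total RNA of sciatic nerves, freed of epineurium and frozen, was sequenced from 3 libraries of PINCH1 mutants, 3 of PINCH2 mutants and 3 of control littermates, all on the C57BL/6 background. Each library pooled 4 nerves of 1 male and 1 female, so that a value averages over animals and sexes. The age was postnatal day 15 by the stage label and day 14 by the protocol. The sources used here do not say how the mutants were made or in which cells the genes were lost.

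Myelinating Schwann cells wrap an axon in compact myelin and keep channels of cytoplasm open in the noncompact parts, namely the paranodal loops, the Schmidt-Lanterman incisures and the Cajal bands under the outer membrane. Periaxin binds DRP2 and, through it, dystroglycan and the basal lamina at the appositions that border the Cajal bands, while connexins and claudins seal or connect the cell's own membrane layers in noncompact myelin. Mag and Cadm4 face the axon along the internode, and gliomedin is secreted at the node, where it gathers axonal sodium channels.

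The libraries held 957828 to 1204964 counts, and 9674 to 11240 entries had at least 1 count. Lims1, the gene of PINCH1, had 0, 1 and 3 counts in PINCH1 mutants, 0, 1 and 9 in PINCH2 mutants and 3, 7 and 7 in controls. Lims2, the gene of PINCH2, had 5, 3 and 1 counts in PINCH1 mutants, 5, 1 and 1 in PINCH2 mutants and 9, 1 and 5 in controls. At this depth neither gene checked the genotype labels. All 10 Schwann cell markers were detected, and their summed level was 10011 to 12548 counts scaled to the library total (CPM) in PINCH1 mutants, 10021 to 12026 in PINCH2 mutants and 12835 to 16141 in controls. Fibroblast markers summed to 780 to 934, 545 to 911 and 623 to 1374 CPM in the same groups, with 6 of 6 detected. Of the 4 keratinocyte markers only Krt10 was detected, at 63.1 to 69.9 CPM in PINCH1 mutants, 28.6 to 61.4 in PINCH2 mutants and 9.57 to 29.1 in controls, and Krt5, Krt14 and Krt1 were at 0. The skeletal muscle markers summed to at most 8.17 CPM, and the endothelial markers to 5.71 to 23.2 CPM over the libraries. Aif1 was at 0 in all libraries although the macrophage markers summed to 474 to 679 CPM. A marker at or near 0 therefore did not show that its cell type was absent.

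The exons of Gm15541 and Gm12927 share bases with coding exons of Prx and Cldn19, and those stretches carry the question of which gene a read came from. Prx lies at chr7:27499324-27520214 on the plus strand of GRCm38, and Gm15541, annotated as antisense, at chr7:27502718-27508122 on the minus strand. Their exons share 300 bases, which is 11.1% of the 2713 exon bases of Gm15541 and 5.38% of the 5579 of Prx. The 300 bases fall in 4 stretches, of 44, 99, 127 and 30 bases, and all of them lie before the last exon stretch of Prx, which holds 4964 bases. In the annotated coding sequence of Prx they take in 57 coding bases, in 2 runs at chr7:27504980-27505006 and chr7:27508074-27508103 (plus strand). Both runs are printed whole in capitals because every base also lies in an exon of Gm15541.
Prx first run: ATGGAGGCCAGGAGCCGCAGCGCTGAG
Prx second run: CGGCAGCTAAGAGCCTCAGCTTGCAAGAAG

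Cldn19 lies at chr4:119255414-119262438 on the plus strand and Gm12927, also annotated as antisense, at chr4:119252522-119256975 on the minus strand. They share 90 exon bases, at chr4:119256886-119256975, which is 24.1% of the 373 exon bases of Gm12927 and 2.11% of the 4263 of Cldn19. The coding exon of Cldn19 that holds them, chr4:119256886-119257050 (plus strand), is shown with the shared bases in capitals.
Cldn19 exon: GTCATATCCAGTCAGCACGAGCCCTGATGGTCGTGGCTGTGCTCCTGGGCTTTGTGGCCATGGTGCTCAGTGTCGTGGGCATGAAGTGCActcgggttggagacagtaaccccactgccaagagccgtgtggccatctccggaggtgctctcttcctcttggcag

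**Figure D1:**
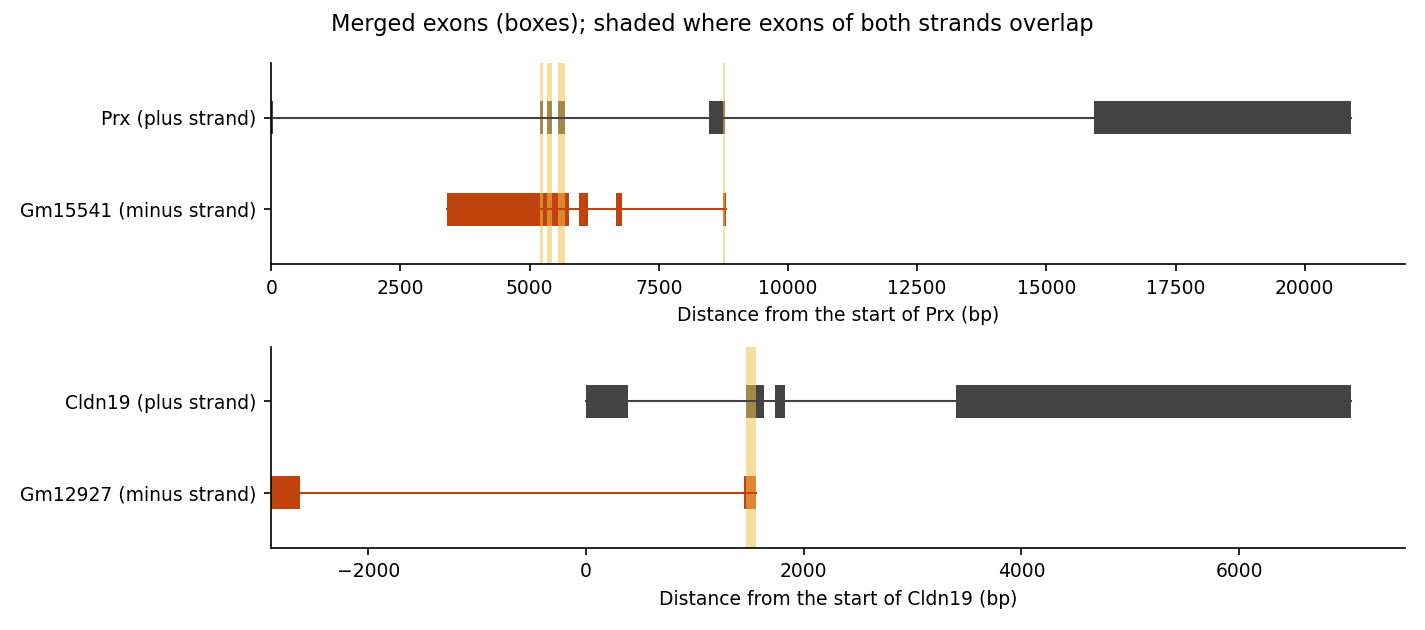
Merged exons (boxes) of Prx and Gm15541 and of Cldn19 and Gm12927, against the distance in bp from the start of Prx or Cldn19. Shading marks the 4 stretches, 300 bases in all, that Gm15541 shares with Prx and the single stretch of 90 bases that Gm12927 shares with Cldn19.

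The sources used here give neither the strand setting of the counting nor whether the kit marked strand, so reads from either strand of these stretches cannot be told apart. The other 6 members had no opposite-strand exon partner. Over the whole table, 24.7% of the entries had such a partner and held 88.4% of all counts. Whether the count of an entry, with or without a partner, reflects transcripts of its own strand was not tested. All levels given here are levels of counts. The map of merged exons shows the shared stretches beside the whole of each gene. They are a small part of Prx (5.38%) and Cldn19 (2.11%), but a larger part of Gm15541 (11.1%) and Gm12927 (24.1%).

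The opposite-strand entries carried most of the counts of both loci. Gm15541 had 13010, 3018 and 12621 counts in PINCH1 mutants, 13734, 11533 and 6175 in PINCH2 mutants and 5821, 4819 and 11426 in controls. Prx, which encodes the scaffold that gives the complex its name, had 514, 281 and 571 counts in PINCH1 mutants, 505, 603 and 520 in PINCH2 mutants and 484, 623 and 823 in controls. Per kilobase of exon the scaled counts of Gm15541 were 42 times those of Prx in PINCH1 mutants, 40 times in PINCH2 mutants and 23.4 times in controls. The strand these reads came from is not settled, so this is a ratio of counts and not of transcripts.

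On the scale of CPM per kb, Gm12927 stood highest of the 10 in all groups, at a mean of 4984 in PINCH1 mutants, 4735 in PINCH2 mutants and 4431 in controls, and Gm15541 came next, with overlap between these 2 in PINCH2 mutants. Prx was the highest of the 8 named genes, at 74, 91.3 and 107 CPM per kb in the same order of groups. Cadm4 and Cldn19 followed, with ranges that overlapped in every group, and Drp2 stood below them at 17.7, 25.5 and 27.2 CPM per kb in PINCH1 mutants, PINCH2 mutants and controls. Gjc3, Mag, Gjb1 and Gldn formed the low end. In controls their means were 14.1, 9.78, 7.73 and 4.82 CPM per kb, and neighbours in that order did not differ beyond the spread of the libraries. In PINCH1 mutants Gjb1 was last, at 1.65, and its libraries lay below all those of Gldn, the next in order. The order of the 10 entries is one of counts, and whether their transcripts stand in the same order was not tested.

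**Figure D2:**
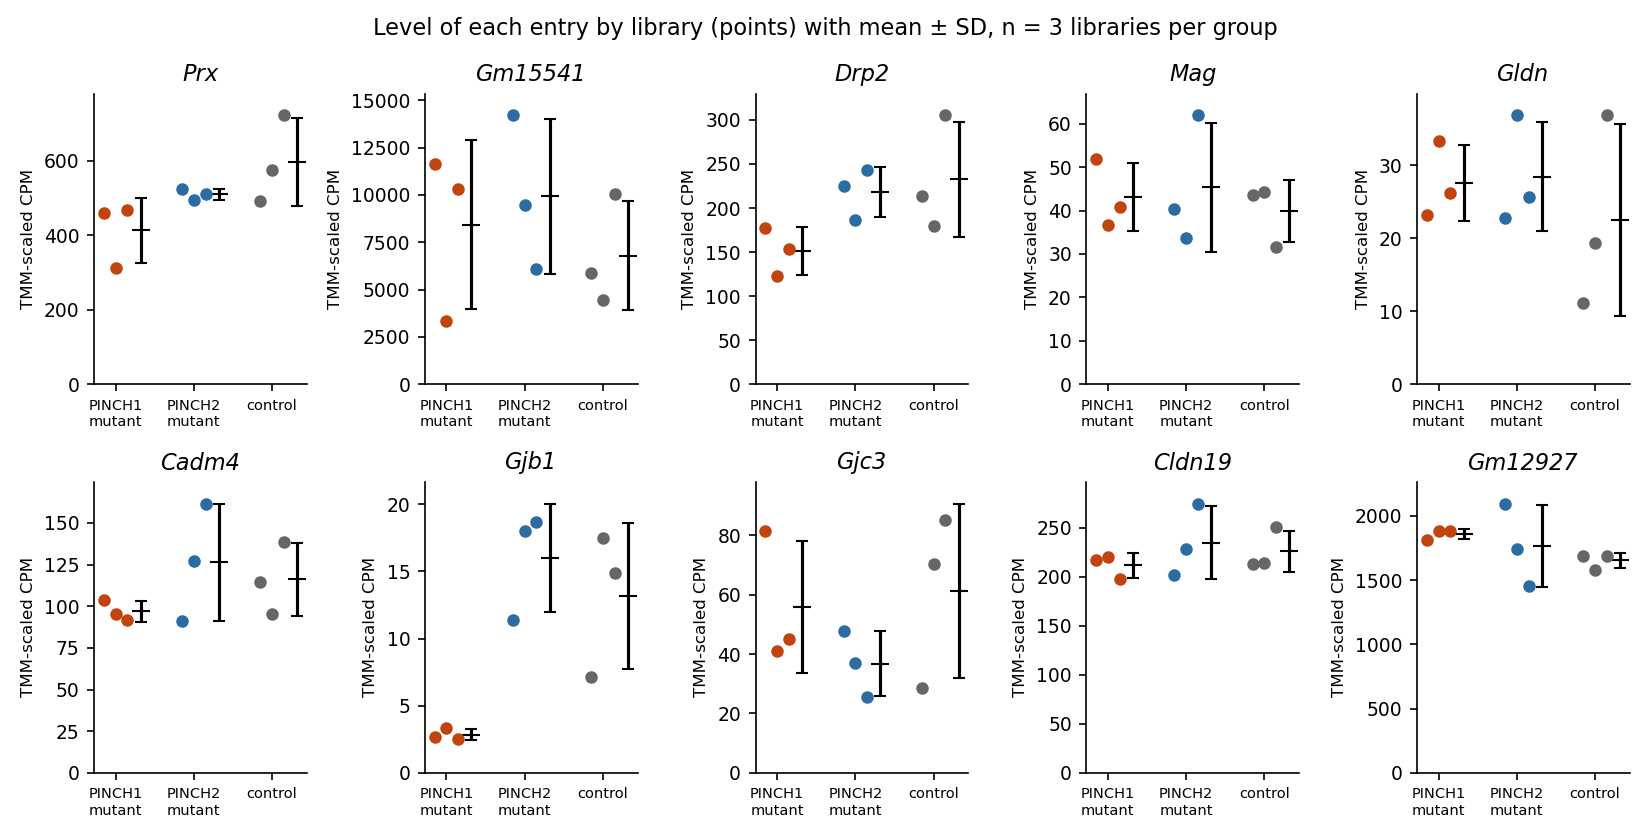
Level of each of the 10 entries in TMM-scaled CPM (vertical axis, from 0) in each library (points), with the mean and SD of the 3 libraries of PINCH1 mutants, PINCH2 mutants and controls. The 3 PINCH1 mutant libraries lie below all 3 control libraries for Prx, Drp2 and Gjb1, and above them for Gm12927.

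PINCH1 mutants were first compared with controls. Prx, Drp2 and Gjb1 had lower levels in all 3 PINCH1 mutant libraries than in any control library, and Gm12927 had higher ones, while the other 6 members overlapped. None of the 10 passed the test (edgeR quasi-likelihood, Benjamini-Hochberg over the 4738 entries tested, threshold 0.05), against a background of 0.0633% of tested entries. At an unadjusted p under 0.05 stood 3 members, all lower, against 6.35% of all tested entries in either direction and 4.09% lower, and DESeq2 also called 0 of the 10. Groups that did not overlap, with PINCH1 mutants lower, were seen in 7.53% of all tested entries, and with PINCH1 mutants higher in 6.16%. Below 0 on the log2 scale were 6 of 10 members, against 52.3% of tested entries, and the median log2 fold change was -0.12 for the members and -0.02 for all. In bulk nerve, fewer Schwann cells and less RNA per Schwann cell cannot be told apart, here or in any result that follows.

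Within the periaxin complex, Prx had 459.3, 312.4 and 467.0 CPM (scaled by TMM, as are all CPM from here on) in PINCH1 mutants, against 490.7, 575.3 and 722.5 CPM in controls. The groups did not overlap, and the lowest value was that of PINCH1 mutant replicate 2 and the highest that of control replicate 3. The log2 fold change was -0.53 (SE 0.18, 95% interval -0.91 to -0.15), or 0.693 of the control level and an edgeR adjusted p of 0.526. It was -0.35 without PINCH1 mutant replicate 2 and -0.37 without control replicate 3, so its size depended on these 2 libraries.

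Drp2, the dystrophin relative that periaxin binds, gave a like pattern over the libraries. Its entry at chrX:134404551-134456573 (plus strand) had 177.8, 123.4 and 153.8 CPM in PINCH1 mutants, against 213.9, 179.1 and 305.5 CPM in controls. The closest 2 libraries of the groups stood at 177.8 and 179.1 CPM, so that the groups were apart by less than the spread within either. The log2 fold change was -0.62 (SE 0.21, 95% interval -1.05 to -0.18; edgeR adjusted p = 0.518), and -0.37 without control replicate 3. The extremes were again PINCH1 mutant replicate 2 and control replicate 3. These 2 libraries also had the fewest and the most entries detected, 9674 and 11240. They had the largest and the smallest share of counts on entries with an opposite-strand partner, 90.4% and 86.3%. What part these library differences, or the lower Schwann cell marker sums in both mutants, had in the lower Prx and Drp2 values was not tested.

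Entries without an opposite-strand partner, to which Drp2 and Gjb1 belong, were lower as a whole in PINCH1 mutants. Their median log2 fold change was -0.19 and 65% of them lay below 0, against 0.05 and 44% for entries with a partner. PINCH2 mutants showed nearly the same, with -0.13 and 61.1% for entries without a partner and 0.04 and 42.3% for those with one. When both kinds of entry were scaled separately, Drp2 stood at -0.44 and Gjb1 at -2.02 in PINCH1 mutants.

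Gjb1, the connexin of the gap junctions between the layers of noncompact myelin and a gene of inherited Charcot-Marie-Tooth neuropathy, showed the largest difference of the set. The entry at chrX:101376378-101385629 (plus strand) had 3, 3 and 3 counts in PINCH1 mutants, against 7, 19 and 17 in controls. Each PINCH1 mutant library was thus at the limit of 3 counts that a count of 0 allows. In CPM the values were 2.7, 3.3 and 2.5 in PINCH1 mutants and 7.1, 17.5 and 14.9 in controls. The fitted log2 fold change was -2.20 (SE 0.63, 95% interval -3.50 to -0.90) and the edgeR adjusted p was 0.373, or 0.519 with no filter on low counts. With 3 counts in each PINCH1 mutant library, Gjb1 passed the filter only through the groups where it was higher, so its place among the members with lower values is a description and not support. Summed over the libraries, 9 counts in PINCH1 mutants against 43 in controls gave a ratio of 0.207 of all counts, with a 95% exact interval of 0.0888 to 0.431 for counting error alone. Low counts were mostly odd throughout the table, 83.6% of the values from 1 to 4 against 50.1% of those over 50, and the 3 values of 3 belong to that range. The exact interval treats counts as independent and makes no allowance for this excess of odd values. The same holds for the later intervals of summed Gjb1 counts.

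**Figure D3:**
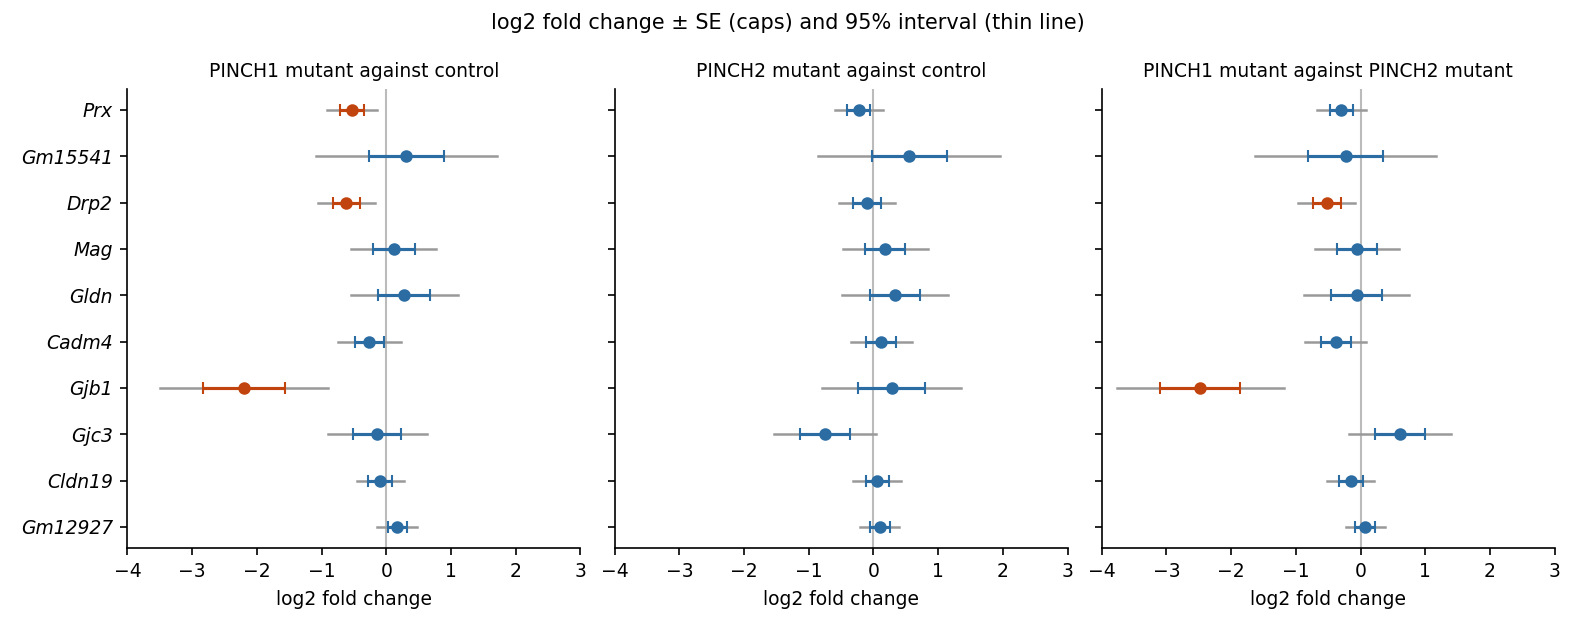
Fitted log2 fold change of each member (points) with SE (caps) and 95% interval (thin grey line) in the 3 comparisons. Red points had an unadjusted p under 0.05, namely Prx, Drp2 and Gjb1 for PINCH1 mutants against controls and Drp2 and Gjb1 for PINCH1 against PINCH2 mutants, and no member passed after adjustment.

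The stretches before the starts of Gjb1 and Prx are shown because both were among the 3 genes with lower levels in all PINCH1 mutant libraries. Sequences are from the RefSeq promoter table of GRCm38.p6, which matched 9 of the 10 members with 17 windows of 250 bases before to 50 after a start. Both strands of these windows were searched for ACAAAG and ACAATG, letters that SOX factors such as SOX10 can bind, and for GTGGGNG, letters that EGR factors such as EGR2 can bind. The capitals mark the matches, the 250 bases before each start are printed, and no 2 of the matches shown overlap.
Prx, chr7:27499074-27499323 (plus strand): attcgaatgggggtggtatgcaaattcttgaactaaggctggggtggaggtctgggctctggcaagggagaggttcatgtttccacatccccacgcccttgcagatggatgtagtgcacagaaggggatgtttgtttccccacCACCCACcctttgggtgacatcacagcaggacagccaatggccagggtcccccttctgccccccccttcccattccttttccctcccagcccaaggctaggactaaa
Gjb1 upstream start, chrX:101376126-101376375 (plus strand): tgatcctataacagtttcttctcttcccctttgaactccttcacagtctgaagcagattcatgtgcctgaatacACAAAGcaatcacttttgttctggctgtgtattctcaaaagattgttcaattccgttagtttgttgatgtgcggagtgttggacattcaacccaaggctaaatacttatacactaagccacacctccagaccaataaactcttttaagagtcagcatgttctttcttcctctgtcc
Gjb1 downstream start, chrX:101383482-101383731 (plus strand): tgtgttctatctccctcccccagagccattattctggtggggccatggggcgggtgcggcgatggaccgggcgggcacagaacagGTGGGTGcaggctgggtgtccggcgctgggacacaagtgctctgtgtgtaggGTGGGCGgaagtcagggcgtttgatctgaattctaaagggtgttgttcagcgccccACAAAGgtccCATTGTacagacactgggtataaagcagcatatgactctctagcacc

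The window of the downstream start of Gjb1 was the only 1 of the 17 to hold all 3 motifs, against 0.63% of the 32851 windows of the table. That share is a rate per window and does not allow for the search of 17 windows, so it does not measure how rare this match is. It had GTGGGNG at positions 86 to 92 and 138 to 144 of the window, ACAAAG at 194 to 199 and ACAATG on the minus strand at 204 to 209. The window of the upstream start of Gjb1, which lies next to the start of the counted entry, had ACAAAG alone, at positions 75 to 80. The Prx window had GTGGGNG alone, on the minus strand at positions 144 to 150. Of the 17 windows of the members, 5 held ACAAAG, 4 ACAATG and 8 GTGGGNG. Some windows of 1 gene overlap and hold the same site, and by gene the counts were 3, 3 and 6 of the 9 members matched. Members whose groups overlapped had matches too. Mag had ACAAAG and GTGGGNG, at the same sites in both of its overlapping windows, and Cadm4 had ACAATG and 5 matches of GTGGGNG. Among all windows of the table, ACAAAG was found in 18.7%, ACAATG in 12.6% and GTGGGNG in 31.6%, so that single matches are common. A match of letters is not a bound site, and the counts do not tell which start of Gjb1 was used.

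Gjc3, the second connexin of the set, which lies along the innermost Schwann cell membrane and in the incisures, varied widely within groups. The entry at chr5:137953809-137962959 (minus strand) had 81.3, 41.1 and 45.0 CPM in PINCH1 mutants, against 28.4, 70.2 and 85.2 CPM in controls. The lowest and the highest of these 6 values were both controls. The log2 fold change was -0.14 (SE 0.37, 95% interval -0.90 to 0.63), which allows either direction, and it stood at 0.04 when entries with and without a partner were scaled separately.

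The adhesion genes that face the axon overlapped between PINCH1 mutants and controls. Cadm4, the Schwann cell partner of the axonal adhesion molecule Cadm3, had 103.7, 95.6 and 91.6 CPM in PINCH1 mutants, against 114.6, 95.1 and 138.7 CPM in controls, with a log2 fold change of -0.26 (SE 0.23, 95% interval -0.74 to 0.22). The 3 PINCH1 mutant values lay close together, and the lowest control lay among them. Mag, a sialic acid binding lectin of the periaxonal membrane, had 51.8, 36.7 and 40.9 CPM in PINCH1 mutants and 43.6, 44.3 and 31.6 CPM in controls (log2 fold change 0.12, SE 0.32). Gldn, which encodes gliomedin, had 23.2, 33.4 and 26.2 CPM in PINCH1 mutants and 11.2, 19.4 and 36.9 CPM in controls (log2 fold change 0.27, SE 0.40). Both the lowest and the highest Gldn value of these 6 were controls. Mag had 33 to 63 counts and Gldn 11 to 45 counts per library. The 95% intervals of their log2 fold changes ran from -0.54 to 0.77 and from -0.55 to 1.10. Changes within those ranges were not excluded, and the intervals are not limits of what the test could call.

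Cldn19, the claudin of the tight junctions within Schwann cell myelin, was the steadiest of the named genes. It had 217.1, 220.1 and 197.1 CPM in PINCH1 mutants, against 212.9, 214.2 and 250.2 CPM in controls, and its log2 fold change was -0.10 (SE 0.18, 95% interval -0.46 to 0.27). Over all 9 libraries the highest level was 1.39 times the lowest, against 2.31 times for Prx and 7.62 times for Gjb1. Gm12927, which lies over it, had 1812.1, 1880.2 and 1885.3 CPM in PINCH1 mutants, against 1689.0, 1581.8 and 1687.3 CPM in controls. These groups did not overlap, but the difference was small, with a log2 fold change of 0.17 (SE 0.15, 95% interval -0.14 to 0.48; edgeR adjusted p = 0.868). Gm15541 had 11625.1, 3355.6 and 10323.0 CPM in PINCH1 mutants, against 5901.2, 4449.8 and 10030.9 CPM in controls, and its log2 fold change of 0.31 had an SE of 0.58. Its groups overlapped, and PINCH1 mutant replicate 2 was the lowest library for this entry as it was for Prx.

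PINCH2 mutants were then set against the same 3 control libraries, so both mutant comparisons share them. Prx and Drp2 stood within the control range in all 3 PINCH2 mutant libraries, Gjb1 overlapped with controls, and Gjc3 had the lowest log2 fold change of the set. None of the 10 members passed the test with edgeR, against 0.0211% of tested entries, and DESeq2 called 0 as well. None had an unadjusted p under 0.05, against 4.26% of tested entries, and none had groups that did not overlap, against 9.08%. Below 0 were 3 of 10 members, against 49.6% of tested entries, and the medians were 0.11 for the members and 0.00 for all.

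Prx had 522.7, 494.3 and 511.6 CPM in PINCH2 mutants, against the 490.7 to 722.5 CPM of controls, with a log2 fold change of -0.23 (SE 0.18, 95% interval -0.60 to 0.15). The 3 PINCH2 mutant values were within the low end of the control range. Drp2 had 224.6, 186.9 and 243.0 CPM in PINCH2 mutants, against 179.1 to 305.5 CPM in controls, with a log2 fold change of -0.10 (SE 0.21, 95% interval -0.53 to 0.34). With separate scaling of entries with and without a partner it was 0.04, so it had no set direction.

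Gjc3 had 47.6, 36.9 and 25.6 CPM in PINCH2 mutants, against 28.4, 70.2 and 85.2 CPM in controls. The groups overlapped through control replicate 1, the second lowest of the 6 libraries. The log2 fold change was -0.75 (SE 0.38, 95% interval -1.53 to 0.04), with an adjusted p of 1 by edgeR, and -0.43 without control replicate 3. Gjb1 had 11, 22 and 19 counts in PINCH2 mutants, and thus 11.4, 18.0 and 18.7 CPM, against 7.1 to 17.5 CPM in controls (log2 fold change 0.28, SE 0.52). The summed counts, 52 in PINCH2 mutants and 43 in controls, gave a ratio of 1.19 with a counting interval of 0.781 to 1.83.

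The adhesion and tight junction genes of PINCH2 mutants also overlapped with the controls. Cadm4 had 91.1, 127.1 and 161.4 CPM (log2 fold change 0.12, SE 0.23), Mag 40.4, 33.6 and 62.0 CPM (0.18, SE 0.31) and Gldn 22.8, 36.9 and 25.6 CPM (0.33, SE 0.39). Cldn19 had 201.8, 227.9 and 274.5 CPM (log2 fold change 0.06, SE 0.18) and Gm12927 had 2096.0, 1745.3 and 1457.2 CPM (0.10, SE 0.15). The 3 PINCH2 mutant libraries ran in opposite orders for Cldn19 and for the entry over it. Gm15541 had 14215.3, 9454.3 and 6075.8 CPM in PINCH2 mutants, with a log2 fold change against controls of 0.55 (SE 0.58, 95% interval -0.86 to 1.95).

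PINCH1 and PINCH2 mutants were also compared directly. The mutant libraries were those already compared with controls, and the fit was the same one of all 9 libraries. Lower values in PINCH1 mutants here are therefore not independent of those against controls. Gjb1, Drp2 and Prx were lower in all 3 PINCH1 mutant libraries than in any PINCH2 mutant library, and the other 7 members overlapped. None of the 10 passed the edgeR test, against 0.0844% of tested entries, and DESeq2 called 0 but gave no adjusted p for Gjb1. At an unadjusted p under 0.05 stood 2 members, both lower in PINCH1 mutants, against 6.35% of tested entries in either direction and 3.42% lower. Groups that did not overlap, with PINCH1 mutants lower, were seen in 5.55% of all tested entries and in 3 of the 10 members. Gjb1 is in both counts of members and adds no support to either, since it passed the filter only through the groups where it was higher. Below 0 were 8 members, against 52.4% of tested entries, with a median of -0.19 for the members and -0.02 for all.

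Gjb1 had 2.7, 3.3 and 2.5 CPM in PINCH1 mutants and 11.4, 18.0 and 18.7 CPM in PINCH2 mutants. Every PINCH2 mutant library was above every PINCH1 mutant library by more than the spread within either group. The fitted log2 fold change was -2.48 (SE 0.62, 95% interval -3.77 to -1.19) and the edgeR adjusted p was 0.214, or 0.143 with no filter, with the same limit that Gjb1 was kept through the group where it was higher. The summed counts of 9 in PINCH1 mutants and 52 in PINCH2 mutants gave a ratio of 0.174 with a counting interval of 0.0752 to 0.356. When any 1 of the 9 libraries was left out, the fitted value stayed between -2.67 and -2.37, and it did not pass in any of those fits.

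Drp2 had 177.8, 123.4 and 153.8 CPM in PINCH1 mutants and 224.6, 186.9 and 243.0 CPM in PINCH2 mutants. The groups were close but did not overlap, at 177.8 and 186.9 CPM where they came nearest. The log2 fold change was -0.52 (SE 0.21, 95% interval -0.96 to -0.08; edgeR adjusted p = 0.761). For Prx it was -0.30 (SE 0.18, 95% interval -0.68 to 0.08), and -0.14 without PINCH1 mutant replicate 2. Gjc3 was the member with the largest value above 0, at 0.61 (SE 0.38, 95% interval -0.18 to 1.39), and the PINCH1 and PINCH2 mutant libraries overlapped at 41.1 and 47.6 CPM. It was 0.23 without PINCH1 mutant replicate 1 and 0.40 without PINCH2 mutant replicate 3.

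The share of each locus that fell on the opposite-strand entry does not depend on the depth of the library. Gm15541 took 96.2%, 91.5% and 95.7% of the summed Gm15541 and Prx counts in PINCH1 mutants, 96.5%, 95.0% and 92.2% in PINCH2 mutants and 92.3%, 88.6% and 93.3% in controls. The 95% Wilson interval was 95.9% to 96.5% for PINCH1 mutant replicate 1 and 87.7% to 89.4% for control replicate 2, and such intervals cover counting error only. Within each group the lowest and the highest library had intervals that did not meet. The mean share was 94.5% ± 2.58 in PINCH1 mutants and 91.4% ± 2.50 in controls (SD, n = 3 each), a difference of 3.07 percentage points (two-sided exact permutation test, p = 0.3). In PINCH2 mutants it was 94.6% ± 2.15 (SD, n = 3), 3.19 points above controls (exact permutation p = 0.3), and PINCH1 less PINCH2 mutants was -0.12 points (exact permutation p = 0.9). With 3 libraries against 3 the smallest possible p is 0.1.

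**Figure D4:**
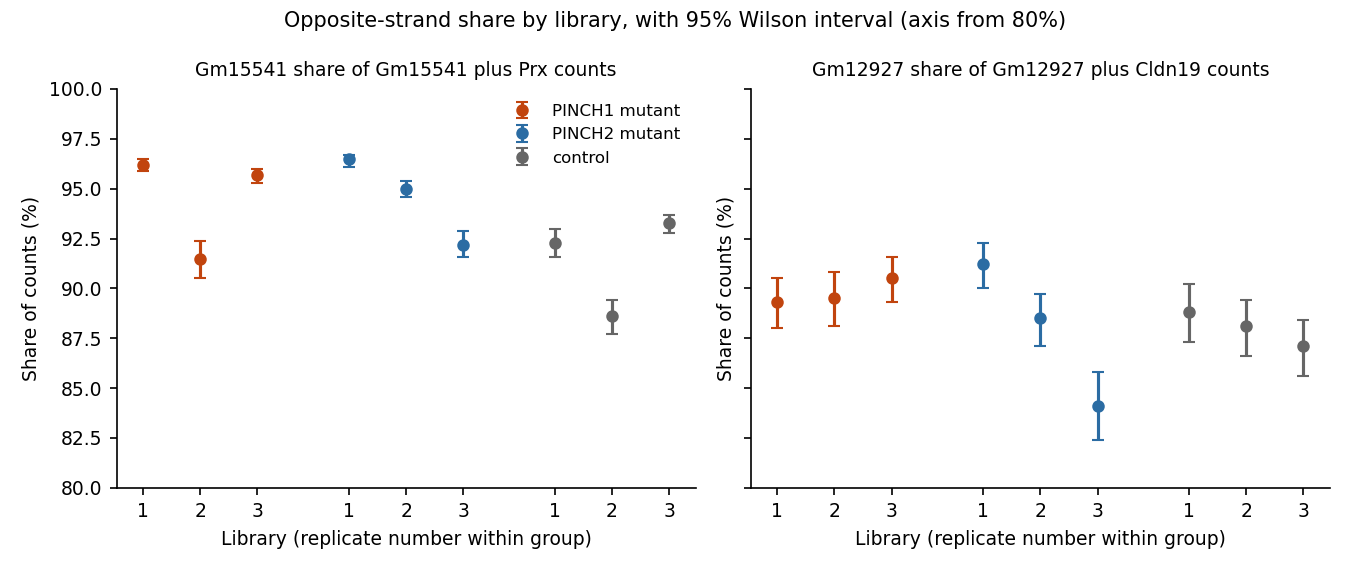
Share of counts, in percent on an axis from 80, that fell on Gm15541 among Gm15541 plus Prx (left) and on Gm12927 among Gm12927 plus Cldn19 (right), for each library with its 95% Wilson interval. The Gm15541 share overlapped between groups, and the Gm12927 share of the 3 PINCH1 mutant libraries, 89.3% to 90.5%, lay above that of the 3 control libraries, 87.1% to 88.8%.

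Gm12927 took 89.3%, 89.5% and 90.5% of the summed Gm12927 and Cldn19 counts in PINCH1 mutants, 91.2%, 88.5% and 84.1% in PINCH2 mutants and 88.8%, 88.1% and 87.1% in controls. PINCH1 mutants did not overlap with controls, and PINCH2 mutants spread to both sides of them. The mean was 89.8% ± 0.659 in PINCH1 mutants, 87.9% ± 3.56 in PINCH2 mutants and 88.0% ± 0.863 in controls (SD, n = 3 each). PINCH1 mutants were 1.80 points above controls, with an exact permutation p of 0.1, the smallest possible. After adjustment over the 6 share tests no p was under 0.6.

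The entries whose levels ran most like those of a member over the 9 libraries were listed for the 7 members with a mean of at least 50 counts, by Pearson's r of log2 CPM and with no test, since the libraries share groups and depth. Prx ran most like Ptrf (r = 0.960), which encodes the caveola protein cavin, then Col14a1 (0.954) and Sema3b (0.948). Spearman's rho of the same 3 was 0.88, 0.48 and 0.72, lower for Col14a1 by rank than by level. Drp2 ran most like Dscr3 (0.942), Qser1 (0.918) and Ahnak (0.918), and Ahnak encodes a large scaffold protein. None of these 6 entries has an opposite-strand partner.

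**Figure D5:**
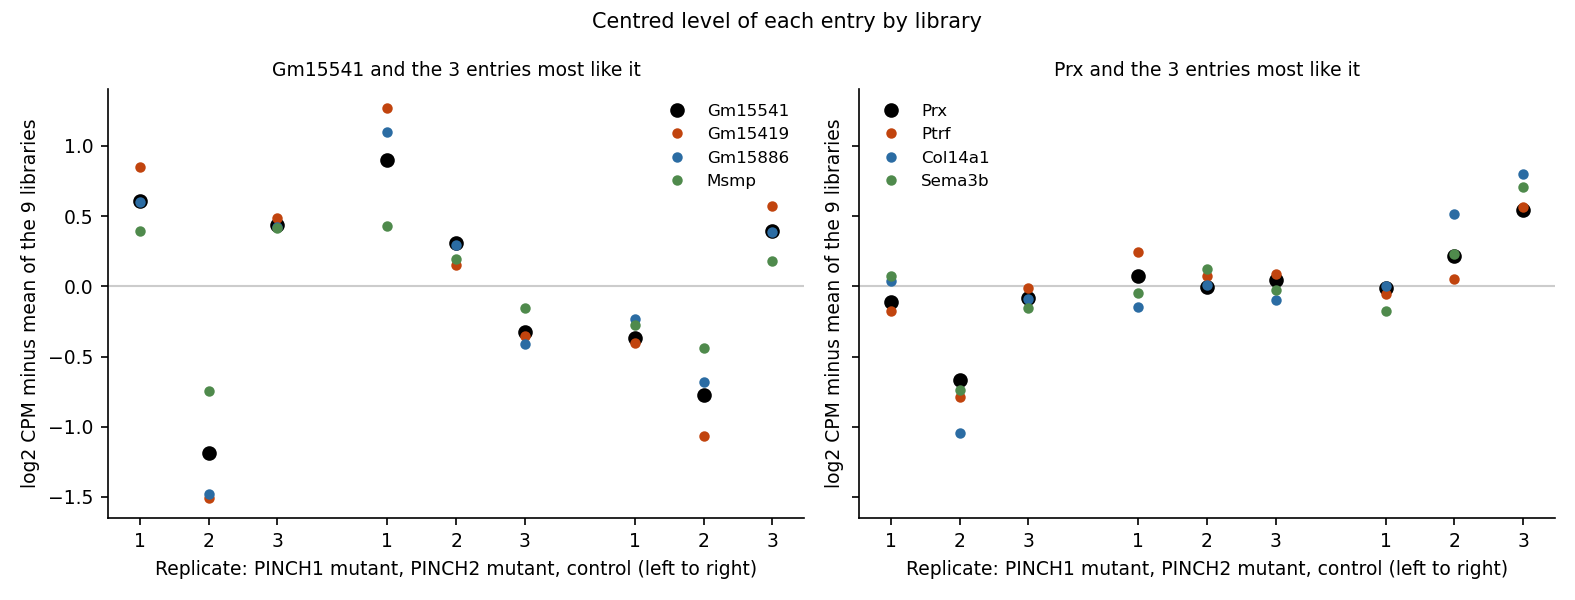
log2 CPM of Gm15541 (left) and Prx (right) and of the 3 entries most like each, less the mean of the 9 libraries, by library. PINCH1 mutant replicate 2 was lowest in both panels, while control replicate 2 was low for Gm15541 and above the mean for Prx.

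The entries nearest Gm15541 did not include Prx. They were Gm15419 (r = 0.992), Gm15886 (0.988) and Msmp (0.984), on chromosomes 8, 3 and 4, and each lies over another gene on the opposite strand. As the plot of centred levels shows, these 4 entries had a like order of the 9 libraries, while Prx and its nearest entries followed another order. Among the 59 entries with r of at least 0.9 to Gm15541, 81.4% had an opposite-strand partner, against 58.9% of all tested entries. The same count was 13 of 13 for Gm12927, 4 of 5 for Cadm4, 1 of 3 for Cldn19, 1 of 5 for Gjc3, 0 of 9 for Prx and 0 of 5 for Drp2. It thus did not follow whether the member itself has a partner, since Cadm4 has none. The level of 0.9 was chosen after the values were seen.

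Cadm4 and Cldn19 were each among the 3 entries nearest the other (r = 0.928). Hiat1 (0.930) and Tceb2 (0.904) made up the 3 of Cadm4, and Zfp74 (0.902) was also among those of Cldn19. Gm12927 ran most like 4922505G16Rik (0.959), Ddb2 (0.953) and Gm5577 (0.951), each with an opposite-strand partner. Gjc3 ran most like Romo1 (0.944), Epb4.1l2 (0.931), a band 4.1 scaffold relative, and Parva (0.922), which encodes a parvin.

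Partners of these genes in the same structures were read as counts. Over all tested entries 52.3% lay below 0 in PINCH1 mutants and 49.6% in PINCH2 mutants, each against controls, with medians of -0.02 and 0.00. Over entries without an opposite-strand partner, which most of the listed genes are, it was 65% and 61.1%, with medians of -0.19 and -0.13. Of 22 listed genes of the periaxin and dystroglycan complex, 12 were tested and 0 passed in any comparison. Below 0 were 8 of 12 in PINCH1 mutants and 9 of 12 in PINCH2 mutants, each against controls, with medians of -0.11 and -0.34, and 3 of the 12 have a partner. The 2 most abundant were the laminin receptor subunit Itga6, at -0.29 (SE 0.19) in PINCH1 mutants and -0.52 (SE 0.19) in PINCH2 mutants, and the laminin chain Lamb1, at 0.02 (SE 0.25) and -0.38 (SE 0.25). Neither passed, with edgeR adjusted p values of 0.841 and 1 for Itga6 and 0.991 and 1 for Lamb1.

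Of 31 listed symbols of node, paranode and internode adhesion, 10 were tested and 0 passed, with 6 of 10 below 0 in PINCH1 mutants and 7 of 10 in PINCH2 mutants, near the shares over all entries without a partner, and 3 of the 10 have one. Epb4.1, the founding band 4.1 gene, stood at 0.28 (SE 0.19) in PINCH1 mutants and 0.64 (SE 0.19) in PINCH2 mutants against controls, and it has an opposite-strand partner. Epb4.1l2 stood at -0.11 (SE 0.25) and -0.26 (SE 0.25). Of the 17 genes of the autotypic junctions 7 were tested and 0 passed, and their medians were -0.33 in PINCH1 mutants and -0.15 in PINCH2 mutants. Below 0 were 5 of the 7 in PINCH1 mutants and 4 in PINCH2 mutants, and 2 of the 7 have a partner. Among them the catenins Ctnnb1 and Ctnna1 stood at 0.36 (SE 0.36) and -0.44 (SE 0.36) in PINCH1 mutants and -0.31 (SE 0.37) and -0.27 (SE 0.36) in PINCH2 mutants.

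For compact myelin, 10 of 12 listed genes were tested and 0 passed, with 8 below 0 in PINCH1 mutants and 9 in PINCH2 mutants. Over all tested entries it was 52.3% and 49.6%, and over those without a partner 65% and 61.1%. The medians of the list were -0.28 in both, against -0.19 and -0.13 for entries without a partner, and 4 of the 10 have one. Pmp22, a membrane protein of compact myelin, stood at -0.26 (SE 0.13) in PINCH1 mutants and in PINCH2 mutants, and did not pass in either (edgeR adjusted p = 0.775 and 1). Of 13 myelination transcription factors 11 were tested and 0 passed, with medians of -0.15 in PINCH1 mutants and -0.24 in PINCH2 mutants against controls. Below 0 were 8 of the 11 in PINCH1 mutants and 9 in PINCH2 mutants, and 4 of the 11 have a partner. The most abundant of them, Zeb2 and Nab2, both with an opposite-strand partner, stood at 0.14 (SE 0.18) and 0.09 (SE 0.19) in PINCH1 mutants and at -0.10 (SE 0.18) and 0.10 (SE 0.19) in PINCH2 mutants.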

How the data were processed

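HISAT2 2.0.5, Trim Galore 0.4.2 with cutadapt 1.9.1, and the build GRCm38 are named per the submitters' processing notes. The sources used here do not give the counting tool or its strand setting. The authors deposited whole-number read counts for 25965 entries in 9 libraries, not scaled for depth or length. A count of 0 allows up to 3 counts, or 2.49 to 3.13 CPM by library. Intervals and limits from counts cover counting error only.

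The members and gene lists were chosen with earlier results of these data known. The named genes were the 10 members, the 2 tested genes of highest mean CPM in each list, and for each member with a mean of at least 50 counts the 3 entries of highest Pearson's r of log2 CPM (prior count 2). Some genes that this rule names are not reported here. Exons were compared with GENCODE M21 on GRCm38, which matched 96.4% of the entries. An entry whose exons overlap exons of a gene on the opposite strand is said to have a partner, and 24.7% of the entries, with 88.4% of all counts, had one.

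All 10 members passed filterByExpr, which kept 4738 entries. They were tested with edgeR 4.0.16 in R 4.3.3 (quasi-likelihood F-test, robust, TMM scaling with factors of 0.939 to 1.06, all 9 libraries, genotype the only term, Benjamini-Hochberg adjustment, threshold 0.05). SE is the absolute log2 fold change over the square root of F. Shares were tested with exact permutation over libraries. Replicates were pools, and p-values measure the spread between pools. Replicates of a group differed by more than counting noise, with a chi-square per entry of 4.3 to 12.6. The procedure was checked on simulated counts. Alternatives were RLE scaling, separate scaling of entries with and without a partner, DESeq2 1.42.0, no filter, fits of the 6 libraries compared alone, a block for the replicate number, and leaving out each library. The labels gave no batch.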

Additional observations from a re-analysis of the deposited data

How the results depend on the processing

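No member passed in any of the 3 comparisons under any alternative, and of 450 alternative values of the members 430 kept their direction and 20 changed sign. The values that changed sign were small. With separate scaling Gjc3 in PINCH1 mutants and Drp2 in PINCH2 mutants, each against controls, both stood at 0.04. With 1 library left out, PINCH1 mutants against controls gave -0.03 to 0.23 for Mag, -0.03 to 0.83 for Gldn and -0.51 to 0.18 for Gjc3. PINCH2 mutants against controls gave -0.25 to 0.15 for Drp2, -0.09 to 0.38 for Mag, -0.07 to 0.31 for Cadm4, -0.05 to 0.15 for Cldn19 and -0.05 to 0.24 for Gm12927. PINCH1 against PINCH2 mutants gave -0.54 to 0.14 for Gm15541, -0.25 to 0.21 for Mag, -0.21 to 0.17 for Gldn and -0.06 to 0.22 for Gm12927. For Prx, Drp2 and Gjb1 in PINCH1 mutants against controls the values stayed below 0, at -0.64 to -0.35, -0.77 to -0.37 and -2.49 to -1.95.

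Share differences with 1 library left out ran from 1.65 to 4.55 and from 1.77 to 4.36 percentage points for Gm15541 in the mutants against controls, and from -1.29 to 1.36 between the mutants. For Gm12927 they ran from 1.35 to 2.20 in PINCH1 mutants and from -1.69 to 1.85 in PINCH2 mutants against controls, and from -0.05 to 3.49 between the mutants.

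Of all tested entries, 3 passed in PINCH1 mutants against controls, and 15 without the filter, 1 with only the 6 libraries, 7 with DESeq2 and 1 to 9 with a library left out. In PINCH2 mutants against controls 1 passed, and 0 with only the 6 libraries and 0 to 1 with a library left out. Between the mutants 4 passed, and 20 without the filter, 10 with only the 6 libraries, 7 with DESeq2 and 3 to 9 with a library left out. The cause was not tested. With the replicate block the counts were 5, 0 and 6. Same-numbered libraries deviated together at correlations of -0.11 to 0.25 and 5 of 9 correlated best with their own number, so they were taken to share only a number. DESeq2 gave no adjusted p for Gjb1 in PINCH1 mutants against either group.

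Depth limits Gjb1, Gldn and Mag most, at 3 to 22, 11 to 45 and 33 to 63 counts per library.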
